A study of Mus musculus with 8 samples.

Results

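Gm29216, Gm28661, Gm28437, Gm10925, Gm28439, Gm10222, Gm28438 and Gm13339 are 8 unprocessed pseudogenes of the mouse nuclear genome whose sequences repeat parts of the mitochondrial genes mt-Co1, mt-Co2, mt-Co3, mt-Atp6, mt-Nd4, mt-Nd4l, mt-Nd3 and mt-Nd2. They are 8 of 55573 genes in the deposited count table of 8 heart libraries. They were chosen by name for this resemblance and for the counts they carry, so their summed level is given as a description without a test. Hearts of 4 db/db and 4 db/m libraries were sequenced. The db/db mice are homozygous for a mutation of the leptin receptor gene that leads to obesity and diabetes, and the db/m mice are their heterozygous controls without the disease. All mice were males of the C57BLKS/J strain at 24 weeks of age, with no treatment named, and 3 µg of heart RNA went into every library. The labels do not say whether each library came from its own animal, so the p-values speak of the variation among these libraries alone, part of which may be technical. Library totals ran from 19541757 to 22249911 counts.

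Mitochondria keep a small circular genome that is transcribed as long precursors from both strands and then cut into the messenger, transfer and ribosomal RNAs. Its messenger RNAs encode core subunits of complex I, complex III, cytochrome c oxidase (complex IV) and ATP synthase, and all other subunits come from nuclear genes. Fragments of this genome have been inserted into nuclear chromosomes during evolution and are annotated there as pseudogenes. In heart muscle, which depends on oxidative phosphorylation, mitochondrial transcripts are among the most abundant RNAs.

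The 8 copies differ in how closely they follow their mitochondrial gene. The sequences shown here, read from the GENCODE M21 transcripts of GRCm38, are those that separate a copy with many counts from copies with few. Gm29216 and Gm13340, a copy outside the 8, both cover bases 1063 to 1212 of mt-Co1, and capitals mark the bases in which a copy differs from mt-Co1. The stretch of Gm29216 lies at chr1:24616039-24616188 and that of Gm13340 at chr2:22588436-22588585, both on the minus strand, and that of mt-Co1 at positions 6390 to 6539 of the mitochondrial genome.
mt-Co1: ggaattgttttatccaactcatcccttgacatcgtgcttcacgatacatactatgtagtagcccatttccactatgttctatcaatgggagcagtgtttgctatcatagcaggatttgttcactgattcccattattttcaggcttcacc
Gm29216: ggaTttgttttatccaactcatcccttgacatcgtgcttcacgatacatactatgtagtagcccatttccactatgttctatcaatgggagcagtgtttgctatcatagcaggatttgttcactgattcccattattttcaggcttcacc
Gm13340: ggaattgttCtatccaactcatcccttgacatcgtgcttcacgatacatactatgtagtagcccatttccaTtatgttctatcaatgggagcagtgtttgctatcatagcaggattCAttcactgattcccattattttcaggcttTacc
Within these 150 bases Gm29216 differed from mt-Co1 at 1 base and Gm13340 at 5 bases. Over the 483 bases that both copies share with mt-Co1, from base 1063 to base 1545, the numbers were 1 and 13. Gm29216 held 4115732 counts over the 8 libraries and Gm13340, which is longer, held 14770.

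Gm10222 had no mismatch to the first 294 of the 297 bases of mt-Nd4l. It is shown whole as an example of a copy without any base of its own, and it lies at chr1:24612407-24612700 on the minus strand.
Gm10222: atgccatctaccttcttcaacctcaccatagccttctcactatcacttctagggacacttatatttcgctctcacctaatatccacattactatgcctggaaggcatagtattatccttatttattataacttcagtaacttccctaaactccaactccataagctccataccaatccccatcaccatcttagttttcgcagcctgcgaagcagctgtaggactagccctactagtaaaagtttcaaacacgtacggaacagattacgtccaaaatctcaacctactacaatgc
Gm28438 had 1 mismatch in 345 bases to mt-Nd3, T3C, with positions counted from the first base of the copy and the mitochondrial base first. Its first 23 bases, at chr1:24613097-24613119 on the minus strand, are shown with those of mt-Nd3, and the base that differs is in capitals.
Gm28438: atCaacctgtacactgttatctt
mt-Nd3: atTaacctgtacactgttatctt
Gm13339, the copy with the fewest counts, had 17 mismatches in 510 bases to mt-Nd2, and 4 of them fall in its first 150 bases. These lie at chr2:22590384-22590533 on the minus strand and are shown with the matching stretch of mt-Nd2, bases 529 to 678, with the differing bases in capitals.
Gm13339: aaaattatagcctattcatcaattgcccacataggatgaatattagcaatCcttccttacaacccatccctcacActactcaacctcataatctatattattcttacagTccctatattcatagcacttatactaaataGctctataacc
mt-Nd2: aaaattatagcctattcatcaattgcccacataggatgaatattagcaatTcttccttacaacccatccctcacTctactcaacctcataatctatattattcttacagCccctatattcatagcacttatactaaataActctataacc

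In their whole length 5 of the 8 copies, Gm28661, Gm28437, Gm10925, Gm28439 and Gm10222, had no mismatch to the mitochondrial gene, over 294 to 876 bases. Gm29216 had 6 mismatches in 492 bases, 5 of which fall in its first 9 bases, and the stretch free of mismatches after them was 479 bases long. In Gm13339 the longest such stretch was 129 bases. How reads that match both a copy and the mitochondrial gene were assigned was not tested, and all 37 genes of the mitochondrial chromosome were listed with 0 counts in every library. The zeros include mt-Cytb, whose closest matched pseudogene, Gm11410, was only 92.9% identical, and why these genes had 0 counts was not tested. In this table the counts of a copy therefore cannot be told apart from those of the mitochondrial gene it repeats. Whether reads over the 17 mismatches of Gm13339 carried the bases of the copy was not tested. The levels of the copies are given here as the table lists them. The use of strand in the counting is also not stated.

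Of the 8 copies, 7 form a single block on chromosome 1, at chr1:24611535-24616197 on the minus strand. The block is 4663 bases long and runs from Gm29216 through Gm28661, Gm10925, Gm28437, Gm28438 and Gm10222 to Gm28439, the order of the genes in mitochondrial positions 6381 to 11042. The distances between neighbouring copies were those of the mitochondrial genome, except between Gm28438 and Gm10222, where 74 bases lie in place of 73. Gm10222 and Gm28439 overlap by 4 bases, as mt-Nd4l and mt-Nd4 do over the same stretch, and how reads across that junction were counted was not tested. Gm13339 lies apart on chromosome 2, at chr2:22590024-22590533, next to Gm13340 and Gm13341.

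BLAST aligned 52 pseudogenes over at least 50% of their length with a mitochondrial gene, the 8 copies and 44 others. Identity is over the bases that BLAST aligned, which for Gm29216 were 483 of 492, where its identity was 99.8%, against 98.8% over its whole length. The 7 pseudogenes with an aligned identity of at least 99% were the block on chromosome 1, and they held 20273496 counts, 12.025% of all counts. At 95 to under 99% identity there were 4 pseudogenes with 36219 counts together. The 41 below 95% held 1202 counts in all, and 15 of them had any. In these libraries the counts thus lay almost wholly in the copies closest to the mitochondrial sequence. Among the 11 pseudogenes with at least 95% identity, the 8 copies held 99.8% of the counts. Gm13339 was included with 2242 counts, while Gm13341, 95.9% identical to mt-Co2, and Gm13340, 97.6% identical to mt-Co1, were not on the list with 18543 and 14770 counts. Outside the list, Gm4076, a copy of mt-Nd5, had 664 counts, Gm11410, a copy of mt-Cytb, had 396, and Gm11408, a copy of mt-Nd6, had 260.

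**Figure D1:**
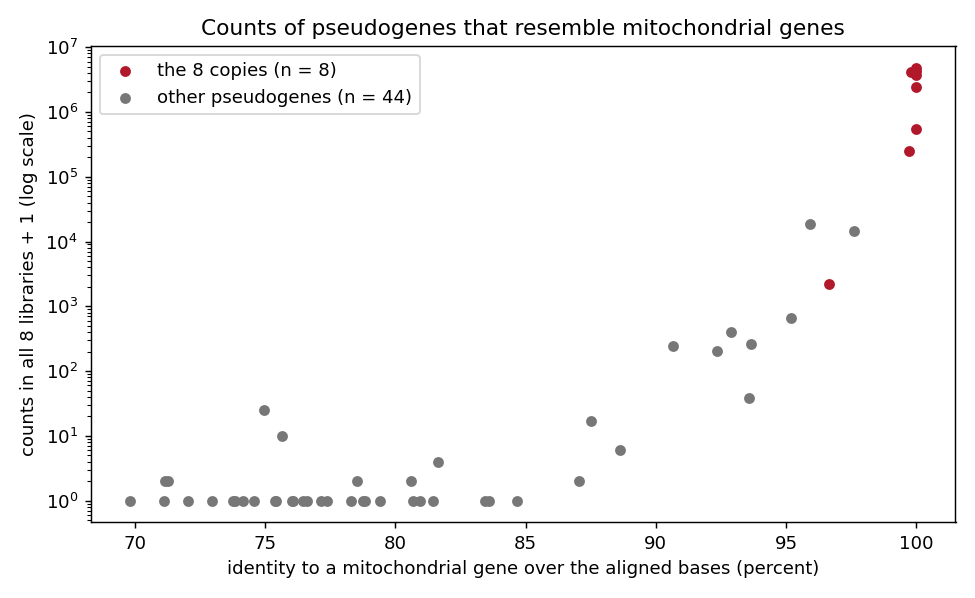
Counts summed over the 8 libraries (plus 1, log scale) against the identity to the best matching mitochondrial gene in percent, for the 8 copies (red) and the 44 other pseudogenes aligned over at least 50% of their length (grey). The 7 block copies stand at the upper right with 250928 to 4848194 counts each, and Gm13339 lies among the less similar copies with 2242.

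Together the 8 copies took 15.5%, 12.1%, 14.0% and 12.01% of the counts in db/db replicates 1 to 4, and 10.8%, 13.7%, 6.53% and 11.9% in db/m replicates 1 to 4. The mean was 13.4% ± 1.69 in db/db hearts and 10.7% ± 3.05 in db/m hearts (SD, n = 4 each). The groups overlapped, because db/m replicate 2 lay above 2 db/db libraries. The lowest share was that of db/m replicate 3. At these depths the Wilson 95% interval of each share reached at most 0.0159 percentage points to either side, which covers counting error only. In bulk tissue, fewer cells of a type and less RNA per cell cannot be told apart.

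**Figure D2:**
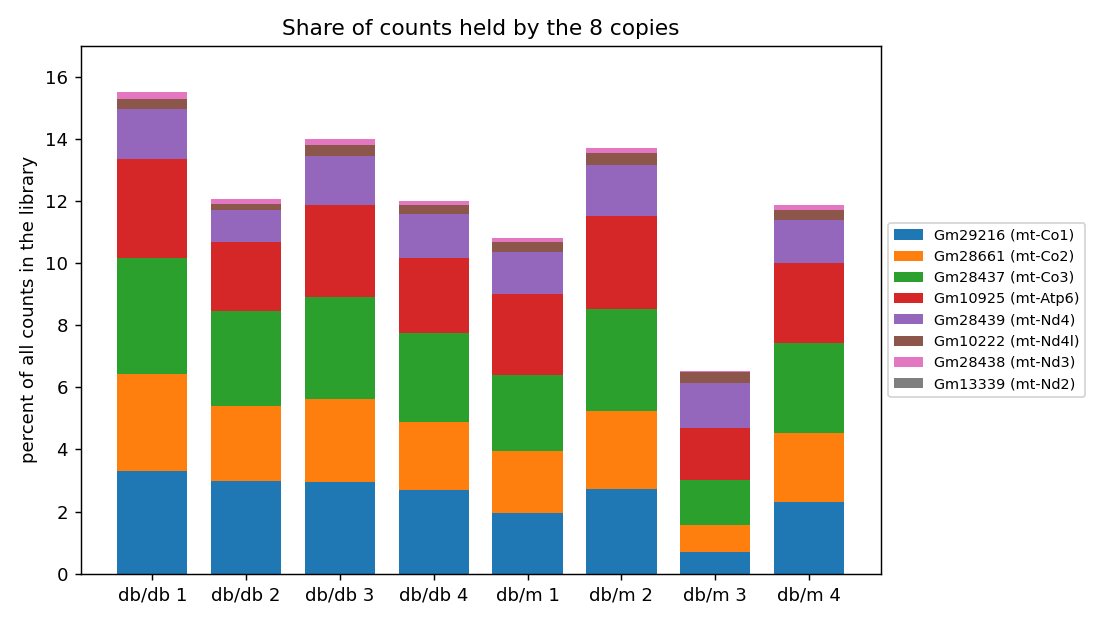
Percent of all counts of each library held by each copy, stacked, in the 4 db/db and then the 4 db/m libraries. The summed share is 12.01% to 15.5% in db/db hearts and 6.53% to 13.7% in db/m hearts, and Gm13339 is too small to be seen.

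Against Myh6, the gene of the main myosin heavy chain of the adult mouse heart, the copies held 12.1, 8.92, 8.90 and 7.23 counts per Myh6 count in db/db replicates 1 to 4, and 7.16, 9.47, 2.88 and 6.94 in db/m replicates 1 to 4. Gm28437 had more counts than any other gene in all 4 db/db libraries and ranked 2, 1, 3 and 1 in db/m replicates 1 to 4. Gm10222 ranked between 11 and 27 in all libraries, Gm28438 between 25 and 233, and Gm13339 between 7426 and 14287.

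Per length, the mean levels of the complex IV and ATP synthase copies stood above those of the complex I copies. Gm29216 averaged 63319 ± 6285 CPM per kb in db/db hearts and 38268 ± 18654 in db/m hearts (SD, n = 4 each), where CPM is the count scaled by the TMM library size and kb refers to the length of the copy. Over all 8 libraries Gm10925 followed, with 41558 ± 7518 and 35436 ± 9741 CPM per kb in db/db and db/m hearts. Gm28437 and Gm28661 came next, with db/db means of 43219.7 and 39597 and db/m means of 31533 and 27352 CPM per kb. The neighbours Gm10925 and Gm28437 did not differ beyond their spread, since Gm10925 was above Gm28437 in only 5 of 8 libraries. The complex I copies were lower, at 16646 ± 3341 CPM per kb in db/db hearts and 16047 ± 1988 in db/m hearts for Gm28439, and at 10828 ± 2806 and 11253 ± 1295 for Gm10222. Gm28438 had 5188 ± 1167 CPM per kb in db/db hearts and 3598 ± 1689 in db/m hearts, and Gm13339 had 31.1 ± 3.62 and 22.3 ± 14.0. Each step from Gm28439 down to Gm13339 held in 8 of 8 libraries, and so did that from Gm28437 to Gm28661. The steps from Gm29216 to Gm10925 and from Gm28661 to Gm28439 held in 7 of 8, with db/m replicate 3 as the exception.

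**Figure D3:**
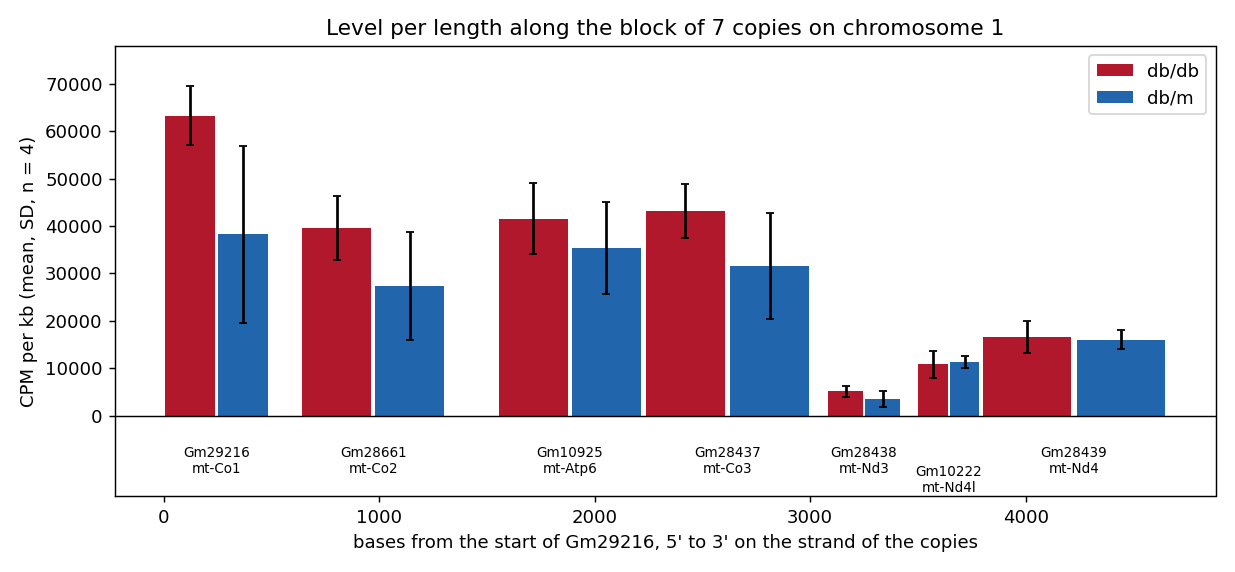
Level per length (mean of 4 libraries with SD, CPM per kb) of the 7 block copies, placed by distance in bases from the start of Gm29216. Each copy's width is shared by db/db (red, left) and db/m (blue, right). The complex IV and ATP synthase copies stand between 27352 and 63319 CPM per kb and the complex I copies between 3598 and 16646.

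Of the 8 copies, Gm29216 had the largest fold change between genotypes in the fit over all libraries, and 0 of the 8 passed the test. Counts were tested with edgeR's quasi-likelihood F test, Benjamini-Hochberg adjusted over 17411 genes with a threshold of 0.05, and each log2 fold change sets db/db over db/m. All 8 copies passed the filter on low counts. In this comparison 0.00574% of all tested genes were called, so a count of 0 among 8 says little about the copies. Across all genes the median log2 fold change was -0.019 and 47.7% of genes had a positive one, against 7 of the 8 copies.

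Gm29216 repeats the last part of mt-Co1, the catalytic subunit of cytochrome c oxidase that binds its haem groups. It had 35472, 30599, 30419 and 28122 CPM in db/db replicates 1 to 4, against 18474, 27909, 6339.6 and 22588 CPM in db/m replicates 1 to 4. All 4 db/db libraries lay above all 4 db/m libraries, and it was 1 of 8 copies whose groups did not overlap in this direction, against 5.04% of all tested genes. In the opposite direction there were 0 copies, against 4.61% of genes. The separation was narrow, and in percent of all counts db/db replicate 4 at 2.70% fell just below db/m replicate 2 at 2.72%. Its mean was 31153 ± 3092 CPM in db/db and 18828 ± 9178 CPM in db/m hearts (SD, n = 4 each). The log2 fold change was 0.73 ± 0.37 (SE) with an adjusted p of 0.425 in edgeR's quasi-likelihood test with Benjamini-Hochberg adjustment. Without db/m replicate 3 it was 0.44 with an adjusted p of 0.289 from edgeR, where 0.6% of genes were called.

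Gm28661 repeats mt-Co2, which carries the copper centre that takes electrons from cytochrome c. It had 33363, 24583, 27162 and 22755 CPM in db/db replicates 1 to 4, against 19183, 25755, 7789 and 21779 CPM in db/m replicates 1 to 4. The db/m replicate 3 was the lowest library and db/m replicate 2 lay within the db/db range. Its log2 fold change was 0.53 ± 0.33 (SE), with an adjusted p of 0.481 in edgeR with Benjamini-Hochberg adjustment, and it was 0.28 without db/m replicate 3.

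Gm28437 repeats mt-Co3, the remaining mitochondrially encoded subunit of cytochrome c oxidase. It had 40104, 31389, 33887 and 29984 CPM in db/db replicates 1 to 4, against 23354, 33685, 13186 and 28537 CPM in db/m replicates 1 to 4. Here too db/m replicate 2 lay within the db/db range and the other db/m libraries below it. The log2 fold change was 0.45 ± 0.28 (SE), with an adjusted p of 0.479 in edgeR with Benjamini-Hochberg adjustment, and it was 0.25 without db/m replicate 3.

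Gm10925 repeats mt-Atp6, the ATP synthase subunit that forms the proton path beside the rotating ring. It had 34265, 22895, 30287 and 25257 CPM in db/db replicates 1 to 4, against 24677, 31002, 15079.9 and 25344 CPM in db/m replicates 1 to 4. The groups overlapped widely, and only db/m replicate 3 stood below the rest. Its log2 fold change was 0.23 ± 0.25 (SE), with an adjusted p of 0.672 in edgeR with Benjamini-Hochberg adjustment, and it was 0.066 without db/m replicate 3, 0.38 when db/m replicate 2 was left out and 0.12 when db/db replicate 1 was.

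Gm28439 and Gm10222 repeat mt-Nd4 and mt-Nd4l, membrane subunits of complex I, which pumps protons as it oxidises NADH. Gm28439 had 17182, 10491, 16068 and 14587 CPM in db/db replicates 1 to 4, against 13082, 16648, 12991 and 13509 CPM in db/m replicates 1 to 4. Gm10222 had 3792, 2013, 3731 and 3197 CPM in db/db replicates 1 to 4, against 3005, 3866, 3186 and 3177 CPM in db/m replicates 1 to 4. In both copies the lowest library was db/db replicate 2, and db/m replicate 3 lay close to the other db/m libraries. The log2 fold changes were 0.053 ± 0.20 (SE) for Gm28439 and -0.056 ± 0.21 for Gm10222, with adjusted p of 0.914 and 0.915 in edgeR with Benjamini-Hochberg adjustment. The direction of both depended on single libraries or the scaling: Gm28439 had -0.058 with library totals in place of TMM factors, and Gm10222 had 0.11 without db/db replicate 2.

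Gm28438 repeats mt-Nd3, a small complex I subunit with a loop near the quinone site. It had 2154, 1604, 2091 and 1312 CPM in db/db replicates 1 to 4, against 1261, 1790.2, 430.2 and 1484 CPM in db/m replicates 1 to 4. Both db/m replicates 1 and 3 lay below all db/db libraries, and the other db/m libraries lay within the db/db range. The log2 fold change was 0.53 ± 0.37 (SE), with an adjusted p of 0.523 in edgeR with Benjamini-Hochberg adjustment, and it was 0.25 without db/m replicate 3.

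Gm13339 repeats the second part of mt-Nd2, another proton-pumping membrane subunit of complex I. It had 346, 312, 330 and 282 counts in db/db replicates 1 to 4, against 268, 398, 52 and 254 counts in db/m replicates 1 to 4. In CPM these were 18.6, 14.6, 15.2 and 15.05 in db/db, against 11.8, 19.5, 2.15 and 12.1 in db/m. The highest and the lowest library were thus both db/m. The log2 fold change was 0.48 ± 0.47 (SE), with an adjusted p of 0.637 in edgeR with Benjamini-Hochberg adjustment, and it was 0.14 without db/m replicate 3 and 0.88 without db/m replicate 2.

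**Figure D4:**
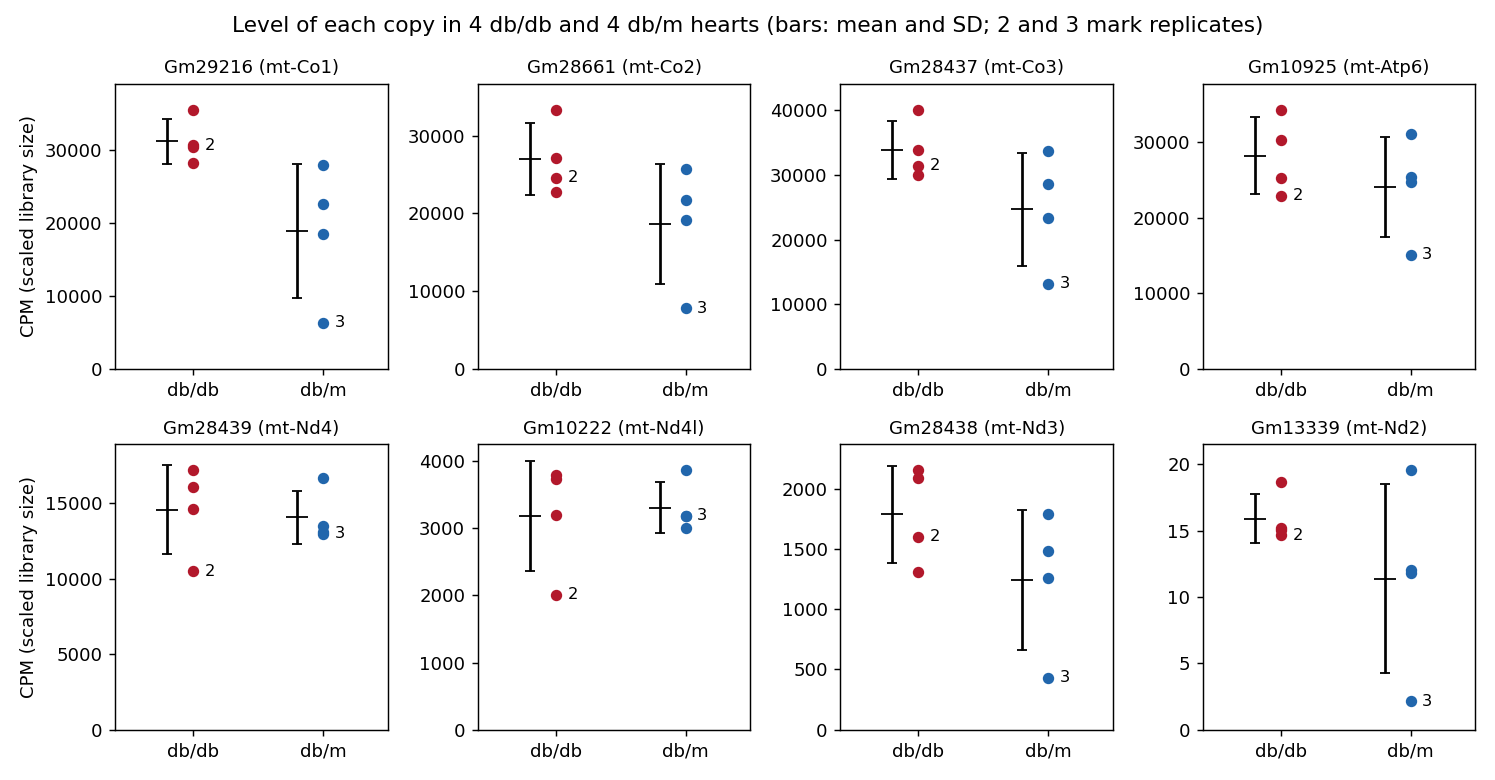
CPM of each copy in every library, db/db in red at left and db/m in blue at right, with mean and SD (n = 4) beside the points, and with db/db replicate 2 and db/m replicate 3 numbered. Db/m replicate 3 is lowest in Gm29216, Gm28661, Gm28437, Gm10925, Gm28438 and Gm13339, while db/db replicate 2 is lowest in Gm28439 and Gm10222.

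By other tests the result was the same for the threshold. With DESeq2, which called 2.17% of genes, and with limma-voom with sample quality weights, which called 0.747%, 0 of the 8 copies were called. For Gm29216 the log2 fold change was 0.73 with an adjusted p of 0.306 in DESeq2 and 0.49 with 0.254 in limma-voom. At an unadjusted p below 0.05, edgeR had 0 of the 8 copies, against 5.12% of all tested genes higher and 7.84% lower in db/db. The unadjusted p of Gm29216 was 0.0801 in edgeR, 0.0398 in DESeq2 and 0.0211 in limma-voom, and in edgeR it was 0.0221 without db/m replicate 3 and 0.0308 without db/m replicate 2. For Gm28437 it was 0.0491 in edgeR without db/m replicate 2. In both copies db/m replicate 2 was the highest db/m library. Below this unadjusted limit, DESeq2 had 1060 genes higher and 1482 lower in db/db of 17411, and limma-voom 1199 and 1266. The edgeR fit without db/m replicate 3 had 1207 higher and 1120 lower of 17652 genes. Without db/m replicate 2 it had 1051 higher and 1827 lower of 17760.

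A single db/m library set much of the spread. In db/m replicate 3 the level was 14.9% of the mean of the other db/m libraries for Gm13339, 27.6% for Gm29216, 28.5% for Gm28438, 35.0% for Gm28661, 46.2% for Gm28437 and 55.8% for Gm10925. For Gm28439 and Gm10222 it was 90.1% and 95.1%. This library was the lowest of the 8 in 6 of the 8 copies, while 32.1% of all tested genes had their lowest value in it. It also stood apart in adipocyte and atrial cardiomyocyte markers, in part together with db/m replicate 1. Summed over 12 adipocyte markers it had 1170.1 CPM, against 336.7 to 644 CPM in the db/db libraries and 336.6 to 699.6 in the other db/m libraries, and the sum over 8 atrial cardiomyocyte markers was 4651 CPM, against 57.3 to 163 in db/db and 43.5 to 2039 in the other db/m libraries. Of the atrial sum in db/m replicate 3, Bmp10 alone held 3072 CPM. Other atrial markers were higher in db/m replicate 1, with 465 against 264 CPM for Myl4 and 759 against 408 for Nppa. The adipocyte marker Fabp4 was lowest in db/m replicate 3, at 186 CPM, against 304 to 607 in db/db. Ucp1, which uncouples respiration in brown adipocytes, had 340.0 CPM in db/m replicate 3 and 77.6 in db/m replicate 1, and it was at 0 in all db/db libraries. Sln, an atrial regulator of the calcium pump, was likewise at 0 in db/db hearts and had 199 and 65.7 CPM in db/m replicates 1 and 3. The fibroblast, macrophage and smooth muscle sums of db/m replicate 3, 2032, 474 and 1942 CPM, lay within those of the other db/m libraries. Its endothelial sum of 2655 CPM lay above their 2291 to 2410, and its erythroid sum of 1293 CPM below their 1359 to 2955. Myh11, a smooth muscle marker, had 381 CPM there, against 62.2 to 81.7 in the other db/m libraries. The defining markers of cardiomyocytes were present throughout, with 40871 to 48769 CPM summed over 12 markers in db/db and 35189 to 46715 in db/m, but 9 of the 12 had their lowest value in db/m replicate 3. Their mean log2 CPM was 11.08 to 11.34 in the db/db libraries, against 10.04 for db/m replicate 3 and 10.93 to 11.19 for the remaining db/m hearts. Myl2, the ventricular myosin light chain, had 759 to 999 CPM in db/db, against 117 for db/m replicate 3 and 593 to 781 for the remaining db/m hearts. Myh6, which makes up much of the sum, was highest in db/m replicate 3 at 20479 CPM. The markers Ryr2 and Ttn were also highest there, at 1458 and 4044 CPM. The exonic lengths of Myh6, Ryr2 and Ttn are 6726, 28790 and 116825 bases. Those of the 9 markers lowest in this library run from 1041 bases for Tnnc1 to 7752 for Tnnt2. A part of transcript length or RNA quality was not tested. Lepr, the gene mutated in db/db mice, had 6.68, 6.38, 3.73 and 6.24 CPM in db/db replicates 1 to 4, against 5.28, 8.49, 21.0 and 7.98 CPM in db/m replicates 1 to 4, and since the mutation does not remove the gene this does not check the labels. The part of the other cell types in db/m replicates 1 and 3, and of the lower cardiomyocyte markers in db/m replicate 3, in the copies' levels was not tested.

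Without db/m replicates 1 and 3 together, the log2 fold changes were 0.30 for Gm29216, 0.18 for Gm28661, 0.11 for Gm28437 and 0.12 for Gm28438, and 0.00016 for Gm13339, -0.0067 for Gm10925, -0.055 for Gm28439 and -0.15 for Gm10222. The copies of complex IV genes and the complex I copy Gm28438 were thus still on the positive side, at less than the log2 fold changes over all libraries. Their SEs were 0.15 for Gm29216, 0.17 for Gm28661, 0.15 for Gm28437 and 0.19 for Gm28438. In edgeR 0 of 8 copies passed there, against 0.256% of genes.

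The composition of the copies' counts also differed between libraries. The complex IV copies Gm29216, Gm28661 and Gm28437 made up 65.5%, 70.0%, 63.7% and 64.6% of the counts of the 8 copies in db/db replicates 1 to 4, against 59.2%, 62.1%, 46.3% and 62.6% in db/m replicates 1 to 4. The complex I copies made up 13.9%, 11.4%, 15.2% and 15.3% in db/db, against 16.8%, 15.9%, 28.1% and 15.6% in db/m. The ATP synthase copy Gm10925 made up 20.6%, 18.5%, 21.1% and 20.2% in db/db, against 23.9%, 22.0%, 25.6% and 21.8% in db/m. In none of the 3 did the genotypes overlap, with the complex IV share higher and the other shares lower in db/db. The gaps were narrow, with nearest db/db and db/m values of 63.7% and 62.6% for complex IV and 15.3% and 15.6% for complex I. For ATP synthase they were 21.1% and 21.8%. Without db/m replicate 3, the db/m shares were 59.2% to 62.6% for complex IV and 15.6% to 16.8% for complex I. Those for ATP synthase were 21.8% to 23.9%. Leaving out a library cannot make separate groups overlap, so the separation there adds no support. The split by complex was chosen after the values were seen, and the shares sum to a whole, so they are not 3 separate results and are given without a test. No share over all genes was computed beside them, so the separation cannot be read as particular to the copies. Set against Gm29216, which belongs to the complex IV copies, 29.3% of all genes were lower in every db/db library than in any db/m library. Most counts of the complex I copies were those of Gm28439, 2399994 over the 8 libraries, against 545260 for Gm10222 and 250928 for Gm28438. The complex I copy Gm28438 had a higher mean CPM in db/db, 1790 against 1241 in db/m, with overlap. The complex I share thus speaks mainly of Gm28439.

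**Figure D5:**
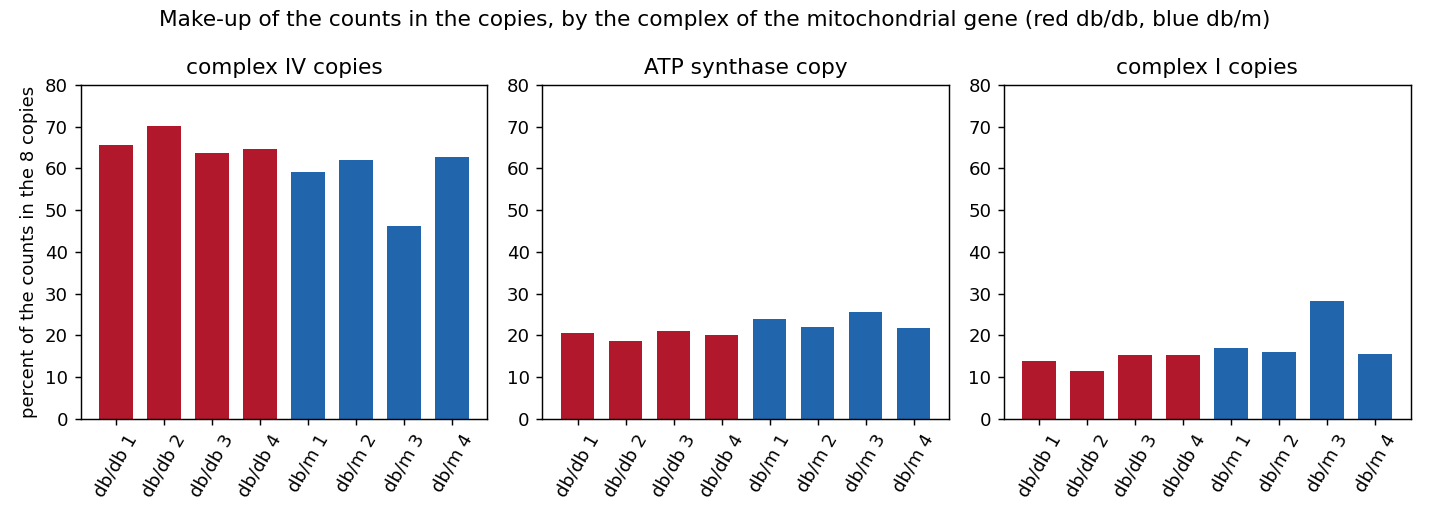
Percent of the counts of the 8 copies that fell in the complex IV copies, the ATP synthase copy and the complex I copies, one bar per library, db/db in red and db/m in blue. The complex IV share is 63.7% to 70.0% in db/db and 46.3% to 62.6% in db/m, and the 2 other shares lie higher in db/m.

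Relative to Gm29216, the genotypes did not overlap for Gm28437, Gm10925, Gm28439 and Gm10222, with db/db lower in each. For any gene set against Gm29216 in the same way, 29.3% of genes lay below and 0.0517% above in all db/db libraries, Gm29216 itself being higher there, so 4 of 7 is to be read against that share. Gm28439 had 0.484, 0.343, 0.528 and 0.519 counts per Gm29216 count in db/db replicates 1 to 4, against 0.708, 0.597, 2.05 and 0.598 in db/m replicates 1 to 4. For Gm10925 the ratio to Gm29216 was 0.966, 0.748, 0.996 and 0.898 in db/db, against 1.34, 1.11, 2.38 and 1.12 in db/m. In each of these ratios db/m replicate 3 was far above the other libraries.

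Over all 8 libraries the steadiest pair was Gm28439 and Gm10222, which adjoin each other and repeat genes that share a messenger RNA in mitochondria. Gm28439 had 4.53, 5.21, 4.31 and 4.56 counts per Gm10222 count in db/db replicates 1 to 4, against 4.35, 4.31, 4.08 and 4.25 in db/m replicates 1 to 4. The SD of the log2 ratio over 8 libraries was 0.11, the smallest of the 28 pairs, and the largest was 1.03, between Gm10222 and Gm13339. Without db/m replicate 3 it was 0.10 for this pair, against 0.054 for Gm28437 and Gm28661. The copies of mt-Atp6 and mt-Co3, whose messages are also neighbours, were at 0.854, 0.729, 0.894 and 0.842 counts of Gm10925 per Gm28437 count in db/db, against 1.06, 0.920, 1.14 and 0.888 in db/m. That ratio overlapped between genotypes.

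The less similar copies outside the list held a small fraction of the counts of the close copies. Gm13341 held 0.428%, 0.494%, 0.479% and 0.549% of the counts of Gm28661 in db/db replicates 1 to 4, against 0.547%, 0.532%, 0.357% and 0.499% in db/m replicates 1 to 4. Gm13340 held 0.243%, 0.313%, 0.367% and 0.409% of the counts of Gm29216 in db/db, against 0.375%, 0.380%, 0.657% and 0.379% in db/m. The genotypes overlapped in both.

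Among 8670 protein-coding genes with a mean of at least 10 CPM, the levels closest in pattern to the mean log2 CPM of the 8 copies were those of Hibadh, Cdc40, Phyh, Acad8, Abhd18 and Srp19, with Pearson's r of 0.99, 0.98, 0.98, 0.98, 0.98 and 0.98 over the 8 libraries. Hibadh encodes an enzyme of valine breakdown, Phyh one of phytanic acid oxidation in peroxisomes, and Acad8 an acyl-CoA dehydrogenase of valine breakdown. The roles of Cdc40, Abhd18 and Srp19 are not described here, and whether the listed genes share a function was not tested. Hibadh had 203, 175, 208 and 188 CPM in db/db replicates 1 to 4, against 149, 199, 81.6 and 171 CPM in db/m replicates 1 to 4. The genes with the most opposite pattern were Arf3, Ppp1r9b and Ercc6l2, with r of -0.99, -0.99 and -0.98. Both sets were picked as the extremes of 8670 genes over 8 libraries, which favours such values of r. The points also share the low db/m replicate 3. Without it, over 7 libraries, r ran from 0.88 for Srp19 to 0.94 for Phyh, with 0.91 for Hibadh. Among the opposite genes it ran from -0.97 for Arf3 to -0.91 for Ercc6l2.

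The nuclear genes of the same complexes stood in the same direction as most copies, and 0 of them passed the test either, against 0.00574% of all tested genes. Log2 fold changes were positive for 37 of 37 nuclear complex I subunits with a median of 0.44, for 14 of 15 complex IV subunits with a median of 0.50 and for 15 of 16 ATP synthase subunits with a median of 0.46, against 47.7% of all genes and a median of -0.019. Of these, db/m replicate 3 was the lowest library in 36 of 37, 15 of 15 and 15 of 16. Without that library the medians were 0.17, 0.17 and 0.23. The complex IV subunit Cox6a2, the heart and muscle form, had 684, 739, 682 and 647 CPM in db/db replicates 1 to 4, against 471, 564, 80.7 and 550.3 CPM in db/m replicates 1 to 4, with a log2 fold change of 0.72 ± 0.46 (SE) and an adjusted p of 0.487 in edgeR. Ndufv1, the complex I subunit that binds NADH, had 466, 471, 458 and 457 CPM in db/db replicates 1 to 4, against 353, 398, 203 and 412 CPM in db/m replicates 1 to 4. Its log2 fold change was 0.44 ± 0.21 (SE) and its adjusted p in edgeR 0.397, and all db/db libraries lay above all db/m libraries, as for 5.04% of all tested genes. The genes named from each list, here and below, had its smallest p, which favours such a separation. Atp5b, the catalytic beta subunit of ATP synthase, averaged 2898 ± 83.2 CPM in db/db and 2206 ± 641 CPM in db/m hearts (SD, n = 4 each). Nuclear pseudogenes matched to these subunits held more counts than the gene itself for 10 complex I, 3 complex IV and 8 ATP synthase subunits, among them Ndufb3, Cox7c, Atp5c1, Atp5l and Atp5f1, whose levels are therefore uncertain.

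Of the genes that copy, transcribe and process the mitochondrial genome, 0 passed the test, against 0.00574% of all tested genes. Log2 fold changes were positive for 10 of 20 genes of mitochondrial DNA replication and transcription with a median of 0.013, for 19 of 27 of mitochondrial RNA processing with a median of 0.22 and for 12 of 16 translation factors with a median of 0.15. Leaving out db/m replicate 3, they were positive for 6 of 20 with a median of -0.046, for 19 of 27 with a median of 0.13 and for 8 of 16 with a median of -0.0051. Here too pseudogenes held more counts than the gene for 2 replication and transcription genes, Ssbp1 and Atad3a. The same held for 2 translation factors, Tufm and Mrrf, and the levels of these genes are uncertain. Lonp1, a mitochondrial protease that degrades the transcription factor Tfam, averaged 135 ± 21.4 CPM in db/db and 110.1 ± 14.5 CPM in db/m hearts (SD, n = 4 each), a log2 fold change of 0.29 ± 0.15 (SE) with an adjusted p of 0.432 in edgeR. Trub2, a pseudouridine synthase of mitochondrial RNA, had 31.2, 28.4, 34.9 and 32.8 CPM in db/db replicates 1 to 4, against 22.5, 23.8, 15.6 and 26.5 CPM in db/m replicates 1 to 4. Its groups did not overlap, as for 5.04% of all tested genes in this direction. The log2 fold change of Trub2 was 0.53 ± 0.17 (SE) with an adjusted p of 0.296 in edgeR. Pde12, which removes poly(A) from mitochondrial messages, had 19.5, 18.0, 18.1 and 19.7 CPM in db/db replicates 1 to 4, against 26.0, 24.9, 26.9 and 21.2 CPM in db/m replicates 1 to 4. It was lower in every db/db library, as were 4.61% of all tested genes, with a log2 fold change of -0.39 ± 0.13 (SE) and an adjusted p of 0.296 in edgeR. Of the translation factors, Gfm2, which helps to release mitochondrial ribosomes, averaged 62.9 ± 3.94 CPM in db/db and 47.5 ± 6.71 CPM in db/m hearts (SD, n = 4 each).

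Among 10 regulators of mitochondrial biogenesis the log2 fold change was positive for 5, the median was -0.034 and 0 passed in edgeR, against 0.00574% of all tested genes. Pprc1, a coactivator related to Ppargc1a, had 27.0, 27.2, 21.05 and 23.1 CPM in db/db replicates 1 to 4, against 35.4, 33.8, 43.2 and 35.3 CPM in db/m replicates 1 to 4. The groups did not overlap, as for 4.61% of all tested genes in this direction. The log2 fold change of Pprc1 was -0.59 ± 0.14 (SE) with an adjusted p of 0.190 in edgeR. In DESeq2 it passed, with -0.58 and an adjusted p of 0.0157, as the only regulator called, where 2.17% of all tested genes were called. Ppargc1a, the main coactivator of this programme in heart, averaged 124 ± 13.7 CPM in db/db and 139 ± 16.2 CPM in db/m hearts (SD, n = 4 each), a log2 fold change of -0.17 ± 0.13 (SE) with an adjusted p of 0.576 in edgeR. In db/m replicate 3, where most copies were low, the regulators summed to 736 CPM, within the 663 to 757 CPM of the other db/m libraries.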

How the data were processed

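RNA sequencing of hearts gave 8 libraries, 4 db/db and 4 db/m, grouped by the genotype in the labels, with replicates numbered in accession order. The authors deposited raw counts for 55573 Ensembl genes as whole numbers, and the processing notes of the submitters name mm10. The aligner, the counter, the annotation release, the strand setting and the treatment of reads with several matches were not given in the sources used here. Counts in the single-sample files equalled those of the joint table, and 0 columns of other samples were present. Gene symbols (55480 found) and transcript sequences came from GENCODE M21 on GRCm38. Pseudogenes were aligned to mitochondrial genes with BLAST 2.17.0, and 95% identity across 0.5 of their length made a match.

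The count test was edgeR 4.0.16 (R 4.3.3): filterByExpr (minimum count 10, minimum total 15), TMM factors, a robust quasi-likelihood F test on genotype, two-sided, with Benjamini-Hochberg adjustment over 17411 genes. CPM is relative to the TMM-scaled library size. Log2 CPM used a prior count of 2. Alternatives were other scalings, other filters (none, or 1 CPM in 4 libraries), library sizes without the mitochondrial copies, DESeq2 1.42.0, limma-voom (limma 3.58.1), a replicate block and leaving out libraries. The fits were tested on simulated data. The members, gene lists, rules and tests were chosen with earlier results of these data known. Named genes are all 8 copies, the 5 other copies with the most counts, up to 4 genes per list by smallest p, the 6 genes most like and the 3 least like the copies over the libraries, and markers. Which of these list genes the text describes, the split by complex, and the ratios other than those to Gm29216 were chosen after the values were seen.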

Additional observations from a re-analysis of the deposited data

Results flagged for a closer look

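In 58 groups of 4 libraries the highest or lowest library was compared with the others by Dixon's ratio at its 95% critical value, and 7 stood apart. Chance alone puts about 1 in 20 groups past this limit, and several of the 7 share libraries and copies. Among db/m hearts, replicate 2 had the highest Gm28439 level, 16648 CPM, against 12991 to 13509 CPM in the other db/m libraries. Among db/db hearts, replicate 1 had the highest Gm13339 level, 18.6 CPM, against 14.6 to 15.2 CPM. The remaining 5 all set db/m replicate 3 above the other db/m libraries in a ratio to Gm29216. Its log2 ratio to Gm29216 was 1.06 for Gm28437, against 0.27 to 0.34. For Gm28439 that log2 ratio was 1.03, against -0.75 to -0.50, which is 2.05 counts of Gm28439 per Gm29216 count, against 0.597 to 0.708. For Gm10222 it was -0.99, against -2.85 to -2.62. Gm13340, the less similar copy of mt-Co1, reached 0.657% of the counts of Gm29216 in db/m replicate 3, against 0.375% to 0.380% in the other db/m libraries.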

How the results depend on the processing

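Of the 8 copies, 0 passed the threshold in any of the 18 alternatives to the reported edgeR fit, DESeq2 and limma-voom included. The number of genes called, 1 in that fit, was 27 without a filter on low counts, 377 with DESeq2, 130 with limma-voom, 46 without db/m replicates 1 and 3, and 0 to 106 with 1 library left out, the highest without db/m replicate 3. Scaling by library totals moved the median log2 fold change of all genes to -0.13, against -0.019 with TMM. The log2 fold change turned to -0.0067 for Gm10925 when db/m replicates 1 and 3 were both left out, and to -0.055 for Gm28439, which had -0.058 with library totals. With 1 library left out Gm28439 ranged from -0.034 (no db/db replicate 1) to 0.18, and Gm10222 from -0.15 to 0.11, with 0.030 when db/m replicate 2 was missing and 0.11 when db/db replicate 2 was. The causes were not tested. Of the 10 regulators of biogenesis, DESeq2 called 1, against 2.17% of all tested genes. Relative to the counts of protein-coding genes, which do not include the copies, the counts of the 8 copies came to 18.5% in db/db and 14.3% in db/m. For all 11 matched copies the values were the same within rounding, 18.5% and 14.3%. The log2 ratio of Gm28438 to Gm29216, db/db minus db/m, ranged from -0.33 to -0.14 with 1 library left out, against -0.23. Replicates that share a number deviated together with correlations of -0.09, 0.06, 0.03 and 0.02, so the numbers were not taken as pairs. With the replicate number as a block, 5 genes and 0 of the 8 copies were called. Depth limits Gm13339, with 52 counts in db/m replicate 3, more than the other copies.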
